A study of Mus musculus with 4 samples.

Results

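Endoplasmic reticulum stress genes were followed in the prostates of mice with altered Rb1. The 10 genes were Hspa5, Hsp90b1, Calr, Pdia4, Sdf2l1, Dnajb9, Herpud1, Xbp1, Atf4 and Ddit3, and they were found by the gene name of each array probe, with the older names Tra1 for Hsp90b1 and Erp72 for Pdia4 allowed. They are 10 of 27670 gene names on the array and were read by 14 of the 41174 probes that were not controls. All 14 passed the filter on dim probes, which kept 24852 probes of 16826 genes. Total RNA of each of 4 mice, aged 60 days and on a mixed C57BL/6:129/SVJae:FVB background, was labelled with Cy5 and hybridised on its own 2-colour array beside a Cy3-labelled pool of prostate RNA from 3 wild-type mice. The 2 mice of genotype Rb1R654W/F:Trp53F/F:PB-cre4 are called mutant here: 1 Rb1 allele codes for the R654W form of the retinoblastoma protein, a partly functional form, and the other is conditional. The 2 mice of genotype Rb1F/F:Trp53F/F:PB-Cre4 are called null, and in them both Rb1 alleles are conditional. All 4 mice carry conditional Trp53 alleles and the probasin-driven Cre transgene, which acts in prostate epithelium, so other cells of the gland keep their Rb1 and Trp53. No mouse with conditional Trp53 and intact Rb1 was analysed here, and the pool differs from both genotypes at both genes.

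Proteins bound for secretion or for membranes fold in the endoplasmic reticulum, and the prostate epithelium is a secretory tissue that relies on it. When unfolded proteins build up there, the sensors PERK, IRE1 and ATF6 start the unfolded protein response. PERK slows translation and favours the transcription factor ATF4, which switches on Ddit3, while IRE1 splices Xbp1 mRNA and ATF6 is cut to an active factor, and both then raise chaperone and degradation genes. The array measured mRNA levels, so neither Xbp1 splicing nor the cleavage of ATF6 nor the translation of Atf4 was measured. In whole tissue, fewer cells of a type and less RNA per cell cannot be told apart.

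The response is known to reach its target genes through short promoter motifs, and the promoters that hold them are shown here because the genes they belong to behaved unlike each other in these mice. RefSeq promoters (assembly GRCm38.p6, 250 bases before the start site and 50 from it on) were matched for all 10 genes. The endoplasmic reticulum stress element, searched on both strands as CCAAT and CCACG with 9 free bases between them, was found in 3 of the 10 promoters, those of Hspa5, Hsp90b1 and Calr, and in 0.119% of all 32851 promoters. The related element II, searched on both strands as ATTGG and CCACG with 1 free base between them, was found in Herpud1 and in 0.0365% of all promoters. The element bound by ATF4 and C/EBP proteins, searched as TTGCATCA on both strands, was also found in Herpud1, against 0.895% of all promoters. The XBP1 element TGACGTGG was in none of the 10 windows and in 0.676% of all promoters. None of these matches overlap another. The 250 bases before the start site of the genes with a match follow, 5′ to 3′ on the strand of the gene. Capitals mark the fixed letters of the matches, and a match on the opposite strand begins with CGTGG. They lie at chr2:34771840-34772089 on the plus strand for Hspa5, chr10:86705445-86705694 on the minus strand for Hsp90b1, chr8:84846932-84847181 on the minus strand for Calr and chr8:94386179-94386428 on the plus strand for Herpud1.
Hspa5: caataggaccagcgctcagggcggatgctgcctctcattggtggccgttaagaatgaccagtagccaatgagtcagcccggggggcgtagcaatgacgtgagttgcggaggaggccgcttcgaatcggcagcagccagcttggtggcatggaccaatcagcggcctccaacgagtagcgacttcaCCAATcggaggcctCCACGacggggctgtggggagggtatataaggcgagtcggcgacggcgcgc
Hsp90b1: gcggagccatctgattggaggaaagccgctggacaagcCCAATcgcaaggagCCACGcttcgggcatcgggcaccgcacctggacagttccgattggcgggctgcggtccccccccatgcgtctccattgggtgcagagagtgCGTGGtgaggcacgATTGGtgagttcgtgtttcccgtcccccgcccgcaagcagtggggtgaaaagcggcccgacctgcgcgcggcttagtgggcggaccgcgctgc
Calr: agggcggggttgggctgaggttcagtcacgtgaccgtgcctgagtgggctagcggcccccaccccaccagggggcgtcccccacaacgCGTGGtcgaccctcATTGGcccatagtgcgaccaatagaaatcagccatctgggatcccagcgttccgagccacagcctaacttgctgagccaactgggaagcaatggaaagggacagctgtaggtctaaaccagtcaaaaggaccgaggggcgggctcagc
Herpud1: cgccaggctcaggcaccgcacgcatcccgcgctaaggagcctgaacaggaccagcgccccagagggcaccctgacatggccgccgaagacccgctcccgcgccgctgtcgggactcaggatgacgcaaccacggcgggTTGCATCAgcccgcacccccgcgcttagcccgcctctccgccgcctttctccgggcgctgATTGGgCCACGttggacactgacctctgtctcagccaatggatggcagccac

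With the start site as position 0, the Hspa5 match runs from -65 to -47. Hsp90b1 has one match on each strand, at -212 to -194 and at -107 to -89. The Calr match is on the opposite strand, at -162 to -144. In Herpud1 the ATF4 element lies at -112 to -105 and element II at -52 to -42. A match is a description of these letters and not a binding site. The members are known genes of this response and the motifs are its known elements, so the shares of all promoters are no test of the members.

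**Figure D1:**
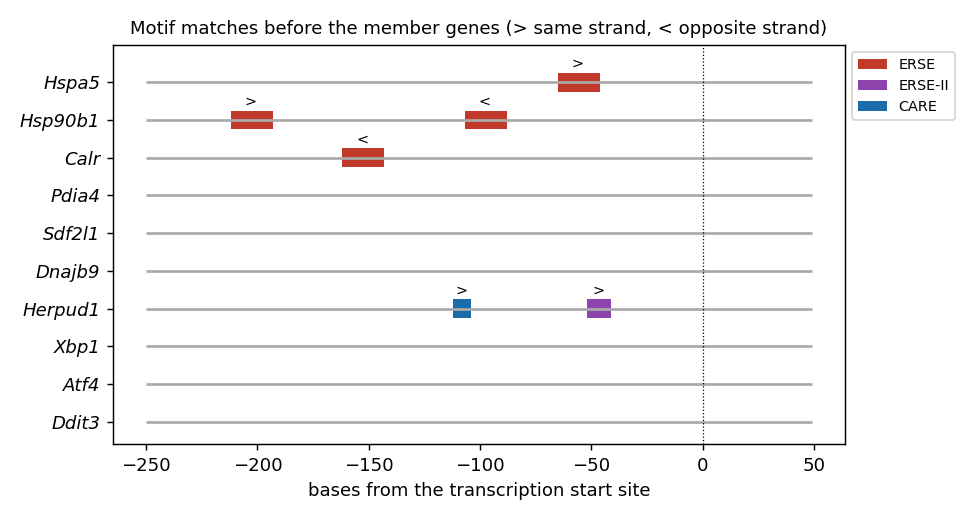
Motif matches in the promoters of the 10 genes, with bases from the transcription start site on the x axis and a line for each gene over the 300 bases searched; boxes are matches and arrowheads give their strand. Hsp90b1 holds 2 stress elements, Hspa5 and Calr hold 1 each, and Herpud1 holds 2 matches of other kinds.

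The 2 libraries of the null genotype differed widely. Over the 24852 probes, the log2 ratios of the null mice correlated with each other at r = 0.156, whereas for null mouse 2 against the mutant mice r was 0.528 and 0.575. These correlations are across probes of arrays that share the pool. The median background-subtracted signal of the mouse channel was 24.4 in null mouse 1 and between 56.8 and 91.3 in the other 3 mice, while the pool channel stayed between 27.3 and 30.0. Probes well above background in the mouse channel numbered 22183 in null mouse 1 and 25047 to 26168 in the others. The log2 ratios of the members are therefore given for each null mouse, while some list and marker values are given for null mouse 1 alone. The prostate markers Tgm4 and Krt18 were bright on all arrays, and Tgm4 read 0.43 and 0.02 in the mutant mice, -0.03 in null mouse 1 and -0.19 in null mouse 2 as a log2 ratio to the pool. Krt18 read 0.85 in null mouse 1 and between -0.11 and 0.28 in the other 3.

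No member differed between the genotypes, or between a genotype and the pool, by limma with Benjamini-Hochberg adjustment over all 24852 probes. None of the 24852 probes was called in any of the 3 comparisons, so the background was 0% in each. The smallest adjusted p was 0.984 for mutant minus null, 0.0515 for mutant against the pool and 0.0818 for null against the pool. With 2 arrays a side, the smallest p an exact permutation test can give is 0.333. What the members did show was a wide spread among the null mice: null mouse 1 lay above the other 3 mice at 10 of the 14 probes, against 31.3% of all probes. Those 10 probes belong to 8 genes, and this count for null mouse 1 was chosen after the data were seen. Centring each array on its median in place of loess, which corrects the ratio for brightness, left 4 of the 14, against 13.3% of all probes. These 4 were Hspa5, Ddit3, Hsp90b1 probe 1 and Dnajb9 probe 1, where probe 1 is the brightest of a gene. With Agilent's own processed signals the count was 10, against 35.7% of all probes. After normexp and loess, null mouse 1 lay below the other 3 at 1 probe, against 37.6% of all probes. It was more than 2-fold above the pool at 7 of the 14 probes, from 5 genes, against 2.95% of all probes. As a log2 ratio to the pool, the 14 probes had a median of -0.12 in mutant mouse 1, 0.14 in mutant mouse 2, 1.07 in null mouse 1 and -0.15 in null mouse 2. The median over all probes lay between -0.01 and 0.03 in each mouse. With median centring the 14 probes had a median of 0.99 in mutant mouse 1, 1.15 in mutant mouse 2, 1.16 in null mouse 1 and 0.80 in null mouse 2, so null mouse 1 was level with mutant mouse 2.

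**Figure D2:**
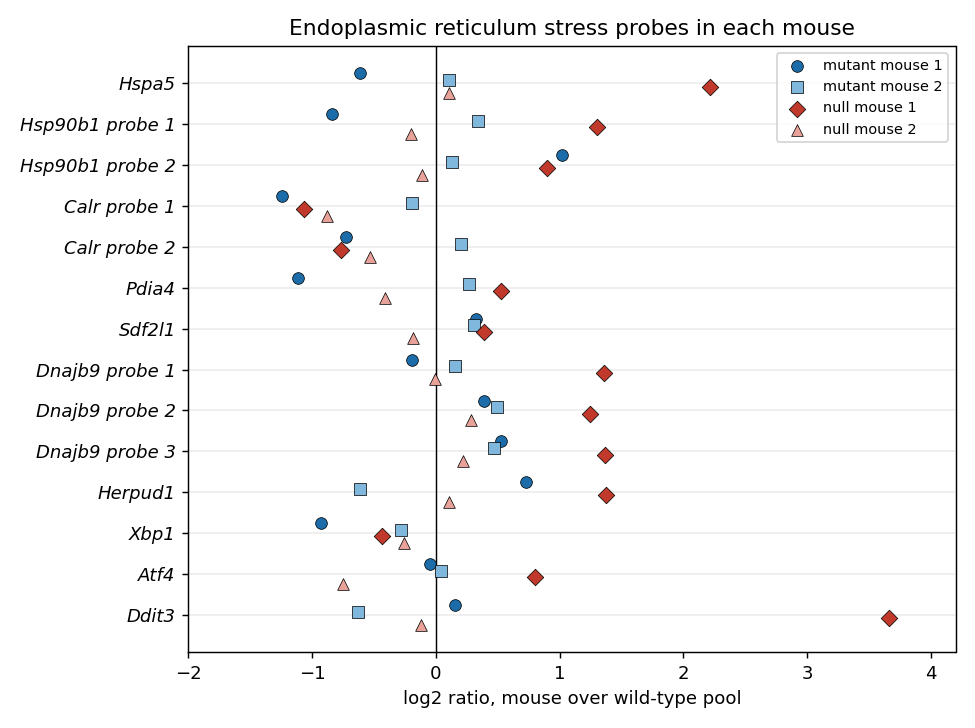
The log2 ratio of each mouse over the wild-type pool (x axis) at each of the 14 probes (y axis), after normexp and loess, with 1 symbol per mouse. Null mouse 1 is the rightmost symbol at 10 probes and reaches 3.66 at Ddit3, while both Calr probes and Xbp1 do not follow it.

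Among the chaperones, Hspa5 codes for BiP, the main Hsp70 chaperone of the endoplasmic reticulum, which also keeps the stress sensors inactive. Its probe lies at chr2:34783421-34783480 on the plus strand (positions of the array files, build mm7). The Hspa5 log2 ratio to the pool was -0.61 in mutant mouse 1, 0.10 in mutant mouse 2, 2.22 in null mouse 1 and 0.10 in null mouse 2. After loess null mouse 1 alone was high, at 4.66 times the pool and rank 65 of the 24852 probes of that array. The other 3 mice then spanned less than 1 log2 unit. With median centring Hspa5 read 0.89 and 1.32 in the mutant mice, 2.68 in null mouse 1 and 1.24 in null mouse 2. The median of all probes lay between -0.04 and 0.62 in each mouse under that setting. Hspa5 was the only one of the 14 probes at which both mutant mice lay below both null mice, and 13.6% of all probes did so. After loess, both mutant mice lay above both null mice at none of the 14, against 16.8%. With median centring they did so at Sdf2l1, Atf4, Calr probe 2, Hsp90b1 probe 2 and Dnajb9 probe 2. The share of all probes under that setting is not given here. The order at Hspa5 rests on mutant mouse 2 at 0.1035 and null mouse 2 at 0.1043. Both Agilent's processed signals (-0.021 and -0.028) and median centring (1.32 and 1.24) ended it. The mutant mean was lower than the null mean by a log2 difference of -1.42 (SE 0.72, 95% interval -3.28 to 0.44, adjusted p = 0.984 by limma). In the null mice the mean against the pool was 1.16 ± 1.50 (SD, n = 2 mice), with an adjusted p of 0.494 by limma. The mouse-channel signal of Hspa5 was 112459 and 149358 in mutant mice 1 and 2, 188707 in null mouse 1 and 113156 in null mouse 2. Null mouse 1 thus had the brightest Hspa5 spot of the 4 although its channel was dimmest in general.

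Hsp90b1 codes for GRP94, the Hsp90 chaperone of the same compartment. It was read by 2 probes, and they disagreed in 1 mouse. Probe 1, at chr10:86249236-86249295 on the minus strand, read -0.84 and 0.34 in mutant mice 1 and 2, 1.30 in null mouse 1 and -0.20 in null mouse 2. Probe 2, at chr10:86256795-86256854, read 1.02 and 0.13 in mutant mice 1 and 2, 0.90 in null mouse 1 and -0.11 in null mouse 2. Probe 2 lies 7559 bases away, nearer the 5′ end of the gene. Both were above the pool in null mouse 1, and in mutant mouse 1 probe 1 was the lowest of the 4 mice and probe 2 the highest. The gap between the probes in mutant mouse 1 was -1.86 (probe 1 minus probe 2), and in the other mice it was 0.21, 0.40 and -0.09. Of the 5675 genes with several probes, 1.39% had a gap as large in mutant mouse 1, where the median gap was 0.33. Agilent's processed signals gave a gap of -1.90 there. The sequence of probe 2, shown because its reading opposes that of probe 1, is as follows.
Hsp90b1 probe 2: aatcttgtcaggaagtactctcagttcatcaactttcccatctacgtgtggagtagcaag

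The mutant minus null difference was -0.80 (SE 0.63) at probe 1 and 0.18 (SE 0.46) at probe 2, with adjusted p of 0.984 and 0.987 by limma. Its sign depends on the probe. Probe 1 of Hsp90b1 had the second smallest distance from the Hspa5 pattern among the members (1.02, Euclidean over the 4 arrays), after Dnajb9 probe 1 at 0.96. Probe 2 of Hsp90b1 lay at 2.11, and Calr lay at 3.50 (probe 1) and 3.06 (probe 2). The promoters of Hsp90b1 and Calr hold the stress element and that of Dnajb9 had no match. Whether the motifs go with the pattern was not tested.

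Calr codes for calreticulin, the lectin chaperone that binds glycoproteins and calcium. Probe 1 (chr8:83428403-83428462) read -1.24 and -0.20 in mutant mice 1 and 2, -1.07 in null mouse 1 and -0.88 in null mouse 2. Probe 2 (chr8:83430740-83430799) read -0.73 and 0.21 in mutant mice 1 and 2, -0.77 in null mouse 1 and -0.53 in null mouse 2. After loess Calr was thus low in 3 mice and nearest the pool in mutant mouse 2, but with median centring both probes were below the pool in null mouse 1 alone, at -0.84 and -0.80. Null mouse 1 did not stand above the others at either probe. The null mean of Calr against the pool was -0.97 ± 0.13 (SD, n = 2 mice) at probe 1, with an adjusted p of 0.473 by limma. The mutant mean was -0.72 ± 0.74 (SD, n = 2 mice), and centring on the array median turned it to 0.50, where the median of all probes had itself moved to 0.60. The null mean of probe 1 was -0.36 under that setting, from -0.84 in null mouse 1 and 0.11 in null mouse 2.

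Pdia4, also known as ERp72, is a protein disulfide isomerase that forms and rearranges disulfide bonds. Its probe (chr6:47755834-47755893) read -1.12 and 0.27 in mutant mice 1 and 2, 0.53 in null mouse 1 and -0.41 in null mouse 2. The mice of each genotype stood on opposite sides of the pool, and the mutant minus null difference of -0.48 (SE 0.55) turned to 0.09 with median centring.

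Sdf2l1 and Dnajb9 code for partners of BiP: SDF2L1 works with its co-chaperones, and DNAJB9, or ERdj4, is a J-domain protein that also serves degradation. Sdf2l1 (chr16:16680066-16680125) read 0.32 and 0.31 in mutant mice 1 and 2, 0.39 in null mouse 1 and -0.18 in null mouse 2. All 4 values lay within 1 log2 unit, and the difference of 0.21 (SE 0.25, 95% interval -0.43 to 0.85) left room for changes either way. With median centring null mouse 1 went from highest to lowest at Sdf2l1. It read 0.63, against 0.79 in null mouse 2 and 1.70 and 1.41 in the mutant mice. The mutant minus null difference was then 0.84, where the median of all probes had itself moved to 0.38. Dnajb9 was read by 3 probes that lie 120 to 596 bases apart at chr12:42082310-42082965. Probe 1 of Dnajb9 read -0.20 and 0.15 in mutant mice 1 and 2, 1.36 in null mouse 1 and -0.0044 in null mouse 2. Probe 2 read 0.39 and 0.50 in the mutant mice, 1.25 in null mouse 1 and 0.28 in null mouse 2. Probe 3 read 0.53 and 0.47 in the mutant mice, 1.37 in null mouse 1 and 0.22 in null mouse 2. At all 3 probes null mouse 1 was highest after loess, but in mutant mouse 1 probe 1 lay below the pool and probes 2 and 3 above it. With median centring only probe 1 kept null mouse 1 highest, at 1.46 against at most 1.12 in the other mice. Probes 2 and 3 of Dnajb9 were the only member probes above the pool in all 4 mice, which held for 16.7% of all probes. At these 2 probes the null mean against the pool was 0.76 and 0.80 (SE 0.25 and 0.28), with adjusted p of 0.473 and 0.479 by limma.

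Herpud1 codes for HERP, a membrane protein of the complex that returns misfolded proteins to the cytosol for degradation. Its probe (chr8:92984261-92984320) read 0.73 in mutant mouse 1, -0.61 in mutant mouse 2, 1.37 in null mouse 1 and 0.11 in null mouse 2. The mutant mice lay on opposite sides of the pool, so the difference from the null mice, -0.68 (SE 0.61), was about the size of its error. The spot signals gave another order: mutant mouse 1 had 98808, null mouse 1 50728, null mouse 2 48016 and mutant mouse 2 40254. With median centring mutant mouse 1 was highest at 2.16 and null mouse 1 followed at 1.71, so the top rank of null mouse 1 at Herpud1 depended on loess. Within the 300 bases searched for each gene, Herpud1 was the only member with an exact match to the ATF4 element. Elements farther away or with other letters were not searched.

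Xbp1, Atf4 and Ddit3 code for the transcription factors of the response. The Xbp1 probe (chr11:5476970-5477029) read -0.93 and -0.28 in mutant mice 1 and 2, -0.44 in null mouse 1 and -0.26 in null mouse 2. Xbp1 and Calr probe 1 were the members below the pool in all 4 mice, against 14.9% of all probes, although median centring put each of them above the pool in 3 of the 4 mice. The mutant mean of Xbp1 was -0.61 ± 0.46 (SD, n = 2 mice) with an adjusted p of 0.453 by limma, and with median centring it was 0.47, below the median of all probes. The Atf4 probe (chr15:80341130-80341189) read -0.05 and 0.05 in the mutant mice, 0.80 in null mouse 1 and -0.75 in null mouse 2. After loess Atf4 split the null mice to either side of the mutant mice, which lay together near the pool, and the genotype means differed by only -0.03 (SE 0.52, 95% interval -1.36 to 1.30). With median centring the split was gone: Atf4 read 1.01 and 0.93 in the mutant mice, 0.80 in null mouse 1 and -0.05 in null mouse 2.

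Ddit3 codes for CHOP, the factor that ATF4 switches on and that is linked to cell death under lasting stress. Its 60-base probe covers 304 bases of genome at chr10:126796858-126797161 on the plus strand, so its letters are not contiguous there. The probe is shown because it carried the highest ratio of any member.
Ddit3: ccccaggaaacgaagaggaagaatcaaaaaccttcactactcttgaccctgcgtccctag

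The Ddit3 log2 ratio was 0.16 in mutant mouse 1, -0.63 in mutant mouse 2, 3.66 in null mouse 1 and -0.12 in null mouse 2. Null mouse 1 stood at 12.7 times the pool, rank 9 of the 24852 probes on that array, and the other 3 mice lay within 1 log2 unit. Median centring left it at 3.68, with the other 3 mice at 0.11 to 1.07. The mouse-channel signal was 6929 in null mouse 1, 866 in null mouse 2, and 1704 and 832 in the mutant mice, while the pool channel lay between 436 and 499. The mutant minus null difference was -2.01 (SE 1.23, 95% interval -5.16 to 1.15) with an adjusted p of 0.984 by limma. In the null mice the mean against the pool was 1.77 ± 2.67 (SD, n = 2 mice). The SD exceeded the mean, because null mouse 2 had a ratio close to the pool.

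**Figure D3:**
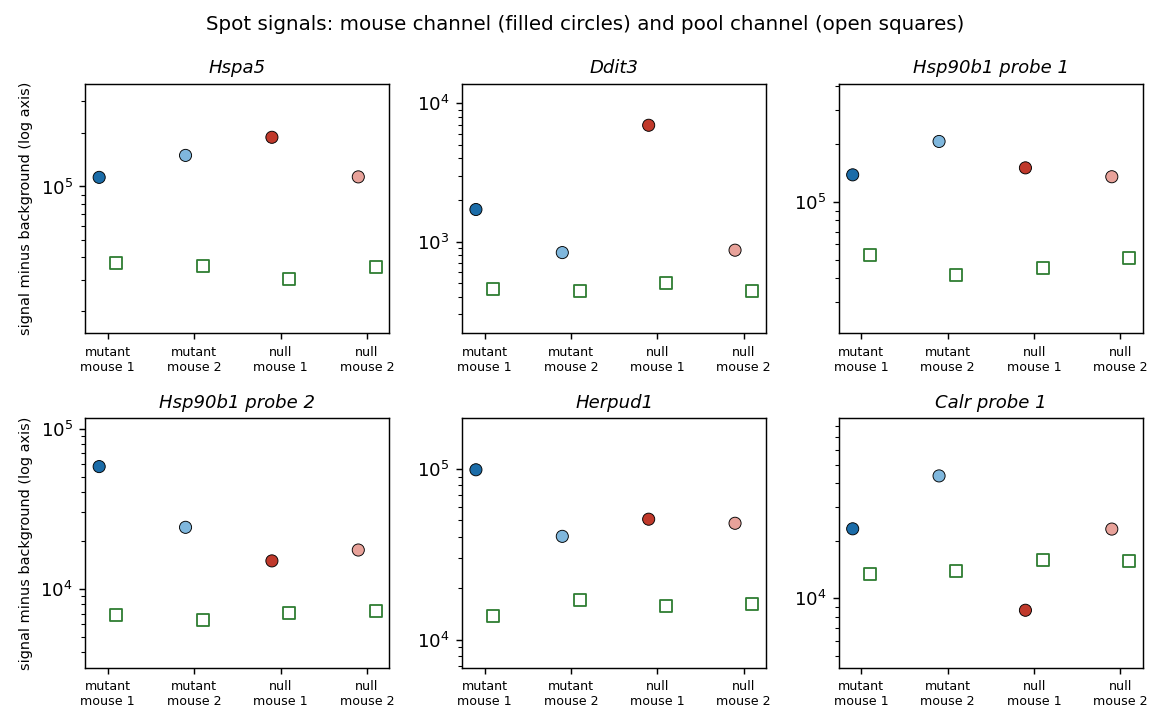
Background-subtracted spot signals (log axes) of the mouse channel (filled circles) and the pool channel (open squares) on the 4 arrays for 6 probes. The pool squares stay level, the filled circle of null mouse 1 is highest for Ddit3 and Hspa5, and mutant mouse 1 is highest for Hsp90b1 probe 2 and Herpud1.

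The pool channel shows how repeatable a spot was, since the same RNA was on each array. For the 14 probes its highest signal was at most 1.27 times its lowest, and the coefficient of variation ran from 0.944% to 10.8%. Without the threshold on adjusted p, 0 of the 14 probes had an unadjusted p under 0.05 for mutant minus null, against 2.18% of all probes. For mutant against the pool there were 2, Calr probe 1 and Xbp1, against 10.6%. For null against the pool there were 4, both Calr probes and Dnajb9 probes 2 and 3, against 10.2%. Both mutant mice lay above the pool at 4 of the 14 probes and below it at 2, against 37.2% and 29.3% of all probes. Both null mice lay above it at 4 and below it at 3, against 29.2% and 27.3%. Ddit3 and Hspa5, the members with the highest ratios in null mouse 1, were not among those with an unadjusted p under 0.05 by limma.

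Leaving out each mouse in turn gave member calls in 1 case. Without null mouse 2, null mouse 1 alone stood for its genotype and was taken to vary like the mutant mice, and 383 probes were called against the pool. They included 3 members by limma: Ddit3 at 3.66 (adjusted p = 0.0214), Dnajb9 probe 3 at 1.37 (adjusted p = 0.0447) and Hspa5 at 2.22 (adjusted p = 0.0472). Against the mutant mice no member was called in that fit, with Ddit3 at -3.90 (adjusted p = 0.0611). Without null mouse 1, the median mutant minus null difference over the members went from -0.31 to 0.07 and no member was called. In that fit the difference was -0.36 for Hspa5 and -0.12 for Ddit3.

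The wider pathway was read from 5 lists with 113 genes, of which 112 were measured by their brightest probe and which hold no member. In none of the 3 comparisons was any of the 112 called by limma. In the PERK and ATF4 arm, null mouse 1 was above the other 3 mice for 21 of 24 genes, against 31.4% of all genes, and more than 2-fold above the pool for 8 of 24, against 3.22%. The median of this list was -0.22 and -0.20 in mutant mice 1 and 2, 0.68 in null mouse 1 and -0.29 in null mouse 2. With median centring the count was 7 of 24, against 11.9% of all genes, and the list medians were 0.83 and 0.73 in the mutant mice, 0.77 in null mouse 1 and 0.43 in null mouse 2, so null mouse 1 no longer had the highest. Slc7a11, the cystine transporter, read -0.46 and 0.14 in the mutant mice, 3.61 in null mouse 1 and -0.10 in null mouse 2. Nupr1, a stress-induced chromatin protein, went the other way, at -1.55 and -1.72 in the mutant mice, -3.91 in null mouse 1 and -0.07 in null mouse 2. The brightest genes of the list, Ddit4 and Phgdh, stayed near the pool in null mouse 1 at 0.16 and -0.08. Chosen after their values were seen, Trib3, an ATF4 and CHOP target, was at 2.56 in null mouse 1, Atf3 at 1.42 and Eif2ak3, which codes for PERK, at 1.37, and these 3 genes read between -0.49 and 0.06 in the other 3 mice.

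In that mouse the medians of the other 4 lists were nearer the pool. For the IRE1 and ATF6 arms, null mouse 1 was highest for 6 of 16 genes, against 31.4% of all genes, with a median of 0.14. Creb3l2, a transcription factor of the reticulum membrane, read -0.96 and -0.44 in the mutant mice, 1.12 in null mouse 1 and -0.13 in null mouse 2. Mbtps1, the protease that cuts ATF6, was lowest in null mouse 1 at -1.005. For chaperones and folding enzymes other than the members, null mouse 1 was highest for 10 of 27 genes, against 31.4% of all genes. The median of this list in null mouse 1 was -0.09, and Creld2 reached 1.67 there while Pdia6 read -0.28. For translocation and secretory transport null mouse 1 was highest for 7 of 23 genes, against the same 31.4%, with a median of -0.07. The translocon subunits Sec61a1 and Sec61b read -0.10 and -0.17. For degradation of proteins of the reticulum null mouse 1 was highest for 14 of 22 genes, again against 31.4%, with a median of 0.27. Syvn1, the ubiquitin ligase HRD1, read 0.36 and -0.82 in the mutant mice, 1.25 in null mouse 1 and -0.19 in null mouse 2. Over the 5 lists together null mouse 1 was highest for 58 of 112 genes, against 31.4% of all genes. With median centring it was highest for 13 of 112, or 11.6%, against 11.9% of all genes. Whether the lists differ from each other was not tested.

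**Figure D4:**
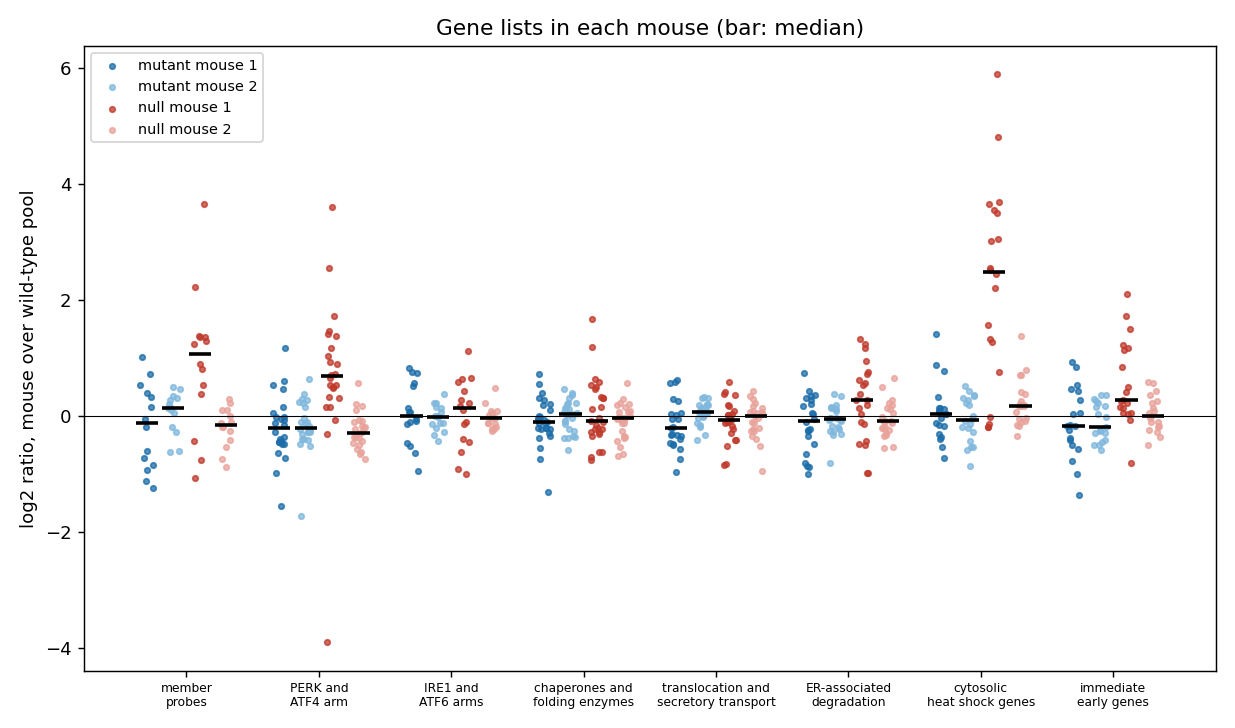
The log2 ratio over the pool (y axis) of each gene in each list (x axis), 1 dot per gene and mouse (per probe for the members), with a bar at the median. In null mouse 1 the members, the PERK and ATF4 arm and the cytosolic heat shock genes lie higher after loess than in the other 3 mice, with medians of 1.07 over the 14 probes, 0.68 and 2.48.

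Heat shock genes of the cytosol and mitochondria, which answer another stress factor, HSF1, were also high in null mouse 1. Null mouse 1 was highest for 17 of 20, against 31.4% of all genes. It was more than 2-fold above the pool for 15 of 20, against 3.22%. Their median was 0.03 and -0.07 in mutant mice 1 and 2, 2.48 in null mouse 1 and 0.18 in null mouse 2. Hspa8, the constitutive cytosolic Hsp70, read 2.21 in null mouse 1 and Hsp90ab1 read 1.33. With median centring null mouse 1 was still highest for 16 of 20, against 11.9% of all genes. Immediate early genes are induced within minutes of a stimulus. Null mouse 1 was highest for 13 of 19 of them, against 31.4% of all genes, with a median of 0.27. Klf6 read 1.72 there and between -0.78 and 0.04 in the other mice, and Jund read 0.05. The part of these responses in the member values was not tested.

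**Figure D5:**
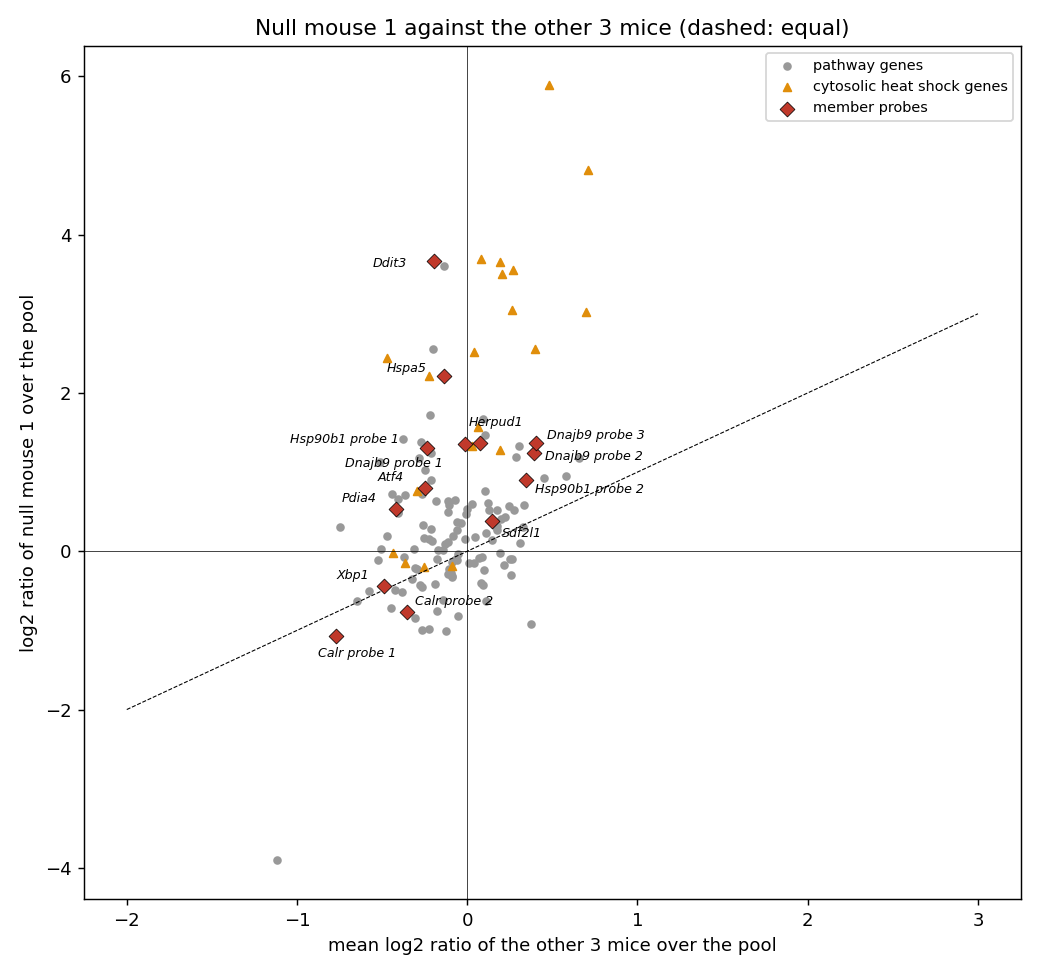
The log2 ratio of null mouse 1 (y axis) against the mean of the other 3 mice (x axis) for the 14 member probes, the 112 pathway genes and 20 cytosolic heat shock genes, with a dashed line where both are equal. Ddit3 and Hspa5 lie far above the line among heat shock genes, and Calr and Xbp1 lie near it.

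Markers of other cell types also set null mouse 1 apart. After loess it was lowest of the 4 mice for 5 of 5 macrophage markers and 5 of 5 fibroblast markers. Over all 16826 genes it was lowest for 6493. The macrophage list had a median of 0.69 and 0.70 in the mutant mice, -0.37 in null mouse 1 and 1.099 in null mouse 2. The fibroblast list had 0.08 and 0.49 in the mutant mice, -0.85 in null mouse 1 and 0.84 in null mouse 2. Lyz2 read -1.22 and Csf1r -0.62 in null mouse 1, and Col3a1 read -1.35 and Dcn -0.92. The 4 basal epithelial markers had a median of 1.06 in null mouse 1, with Krt15 at 1.13 and Krt5 at -0.38. The 8 prostate luminal markers measured had medians of 0.41 and 0.18 in the mutant mice and -0.10 and -0.18 in null mice 1 and 2, but in null mouse 1 they ran from -3.13 (Msmb) to 1.30 (Krt8), 2 genes named after their values were seen. The 5 measured markers of plasma and B cells, which are rich in endoplasmic reticulum, ran from -0.27 to 0.53 in null mouse 1, with a median of -0.14. The 5 smooth muscle markers were all highest in null mouse 1, at 0.07 to 0.52, against 31.4% of all genes. Seminal vesicle markers differed most between mice, with a median of -4.13 in mutant mouse 1, -0.79 in mutant mouse 2, -5.29 in null mouse 1 and -3.72 in null mouse 2. The part of cell makeup in the member values was not tested.

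Outside the pathway, the genes with the pattern most like Hspa5 over the 4 arrays were Azin1, Pkp2, Zfp143, Ets2 and Cacybp, of 13505 named genes. Azin1 lay at a Euclidean distance of 0.32 and read -0.65 and 0.09 in the mutant mice, 2.02 in null mouse 1 and -0.14 in null mouse 2. The distances of the other 4 ran from 0.47 to 0.51. Each of these 5 was nearer to Hspa5 than any member was. They were picked as the nearest of 13505 genes, far more than the members, so the distances do not compare the members with other genes.

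The authors' deposited table lists all 10 genes in 13 rows, with the mean ratio of each genotype to the pool. In the authors' deposited table Ddit3 has a null mean of 6.29 with an SEM of 5.47 and a mutant mean of 0.728 with an SEM of 0.178, and is listed as down in the mutant by 8.64-fold. Hspa5 in the authors' deposited table is down by 2.82-fold, from a null mean of 2.10 with an SEM of 1.22. The authors' deposited table also lists Dnajb9 down in 3 rows by 1.34 to 1.8-fold, Hsp90b1 in 1 row by 1.7-fold and Herpud1 by 1.57-fold. Calr is up in the mutant in both of its rows of the authors' deposited table, by 1.26 and 1.41-fold, as is Sdf2l1 by 1.13-fold. Xbp1, Atf4 and Pdia4 are down by 1.17, 1.17 and 1.15-fold in the authors' deposited table. That table has no p-value, and its SEM for the null mean of Ddit3 is nearly as large as the mean. The directions of these rows are those of the log2 differences found here, at Hsp90b1 those of probe 1.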

How the data were processed

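RNA from the prostates of 4 mice, 2 of each genotype, was measured on 4 arrays of 1 slide and 1 scan, each against the same pool, without dye swap. Each genotype took adjacent positions of the slide, and the 2 cannot be told apart. The deposited scanner files give spot brightness as intensity (mean signals, background medians and processed signals) and a log10 ratio of red over green processed signal, per the file headers. The software was Agilent Feature Extraction, version 9.5.1.1 per the file headers and 8.5 per the submitters' processing notes. The authors' deposited table holds, for each genotype, a mean linear ratio to the pool with a standard error (a signal on the same linear scale), and no p-value. Its smallest member ratio is 1.13.

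Mean signals were background-corrected with normexp (offset 50) and normalised by loess within each array with limma 3.58.1 (R 4.3.3). Control spots were given weight 0, spots with an outlier flag were left out, spots of a probe were averaged and no probe was saturated. Probes were kept that were well above background in the mouse channel of both mice of a genotype or in the pool channel of all 4 arrays. The log2 ratios of all 24852 probes kept were fitted with a term for each genotype (lmFit, eBayes), and a probe was called when its p, adjusted by Benjamini-Hochberg over all of them, was under 0.05. The fit was also run on simulated data, with independent noise that had the same spread on all arrays for a given probe. In the real data the SD of the log2 ratios was 0.29 in mutant mouse 2 and 0.54 in null mouse 1. The simulation is therefore no check on the member results. The pool counts as 1 control sample, so its own spread is left out, and a dye effect stays in ratios to it. The number of arrays limits the precision.

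The members and gene lists were chosen with earlier results of these data known, so no pattern here is independent support for those results. Named genes were all members, from each pathway list the 2 brightest genes and the 2 farthest from the pool over the 4 arrays, from each other list the 2 brightest, and the 5 genes most like Hspa5. A few others are named, each marked as chosen after its values were seen. Some genes taken by the rule are left out here. Gene names of lists were matched through the RefSeq table of GRCm38.p6. The replicate numbers do not pair the mice: deviations of same-numbered mice correlated at 0.00355. Alternatives were no background correction, Agilent's processed signals, median centring, no filter, 1 probe per gene, a replicate block and leaving out each mouse.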

Additional observations from a re-analysis of the deposited data

How the results depend on the processing

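No member was called under any alternative except without null mouse 2. The replicate block left the medians over the 14 probes at -0.31 for mutant minus null, -0.13 for mutant against the pool and 0.47 for null against the pool, and called 0 probes; the numbers do not pair the mice. With 1 probe per gene, 2 genes were called for mutant against the pool.

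Median centring called no member. It moved the median of all probes to 0.38 for mutant minus null, 0.60 for mutant against the pool and 0.14 for null against the pool. The member median became 0.29, 1.08 and 1.01 in these comparisons. It left null mouse 1 above the others at 4 member probes, against 10 after loess. Median centring was planned, but the count for null mouse 1 was chosen after seeing the data under every setting. Mutant minus null turned to 0.0944 for Pdia4, 0.36 for Xbp1 and 0.59 for Atf4. Mutant against the pool turned to 1.11 for Hspa5, 1.14 for Hsp90b1, 0.50 for Calr, 0.77 for Pdia4, 1.04 for Dnajb9, 0.47 for Xbp1, 0.97 for Atf4 and 0.59 for Ddit3. Null against the pool turned to 0.10 for Xbp1. With Agilent's processed signals, Atf4 turned to 0.0171 in mutant against the pool and Pdia4 to -0.0100 in null against the pool. The cause was not tested.

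Leaving out each mouse in turn gave 0 to 9 probes called for mutant minus null, 0 to 2 for mutant against the pool and 0 to 383 for null against the pool, and 0 to 3 members called in the last. The 2 probes for mutant against the pool came when either null mouse was left out, and the highest counts of the other comparisons without null mouse 2. The member median ran from -0.84 to 0.07, from -0.13 to 0.14 and from -0.15 to 1.07 in the 3 comparisons. For mutant minus null, Hspa5 ran from -2.47 to -0.36, Ddit3 from -3.90 to -0.12, Hsp90b1 from -1.55 to -0.0534, Dnajb9 from -1.38 to -0.0167, Herpud1 from -1.35 to -0.0130, Calr from -0.27 to 0.78, Pdia4 from -1.18 to 0.21, Sdf2l1 from -0.0712 to 0.50, Xbp1 from -0.58 to 0.0669 and Atf4 from -0.80 to 0.75. For mutant against the pool, Hspa5 ran from -0.61 to 0.10, Hsp90b1 from -0.84 to 0.34, Pdia4 from -1.12 to 0.27, Dnajb9 from -0.20 to 0.15, Herpud1 from -0.61 to 0.73, Atf4 from -0.0473 to 0.0452 and Ddit3 from -0.63 to 0.16. For null against the pool, Hsp90b1 ran from -0.20 to 1.30, Pdia4 from -0.41 to 0.53, Sdf2l1 from -0.18 to 0.39, Dnajb9 from -0.0044 to 1.36, Atf4 from -0.75 to 0.80 and Ddit3 from -0.12 to 3.66. In each of these fits a genotype rests on 1 mouse, which was taken to vary like the other genotype. Genes stand here by their brightest probe.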
